A study of Lepidobatrachus laevis with 14 samples.

Results

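Secreted proteins that tune Wnt signalling were followed in the embryonic stomach of Budgett's frog, Lepidobatrachus laevis, whose larvae eat other animals. The set held 7 genes: the secreted Frizzled-related proteins SFRP1, SFRP2, FRZB (also called SFRP3) and SFRP5, the R-spondins RSPO2 and RSPO3, and the Dickkopf protein DKK1. They were taken by human protein entry name from a table of 26940 rows, each gene being represented by its most abundant reviewed row. All 7 had a row, out of 13574 reviewed entry names, and all 7 passed the filter on low counts. The members were selected on earlier left-right values of these libraries, in which FRZB and RSPO3 had differed between the sides. Left-right values of the single-stomach libraries, and of all libraries together, are therefore given as a description.

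Wild-type embryos of wild-caught stock were taken at Gosner stage 19, their stomachs were parted into left and right, and RNA was sequenced from 7 left and 7 right libraries. On each side 2 libraries, replicates 7 and 8, pooled tissue of 5 stomachs, and 5 libraries, replicates 1, 2, 3, 5 and 6, held tissue of 1 stomach. The numbers 7 and 8 only follow the order of the deposited samples within a side and do not pair the pools. Different facilities built the pools and the single-stomach libraries, and an effect of pooling cannot be told apart from one of facility. Left and right single-stomach libraries with matching titles are called title pairs here, although no label states that the members of a pair came from the same stomach.

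Wnt ligands signal through Frizzled receptors and the co-receptors LRP5 and LRP6, and in the canonical branch this stabilises β-catenin. Secreted Frizzled-related proteins carry a domain like the ligand-binding part of Frizzled and can hold Wnts away from their receptors. DKK1 blocks the co-receptors. R-spondins act the other way: bound to LGR receptors, they clear the ubiquitin ligases ZNRF3 and RNF43, which otherwise remove Frizzled from the cell surface. In the mouse, the stomach mesenchyme makes Sfrp1 and Sfrp2 under the homeobox factor Barx1, and in Xenopus sfrp5 marks the foregut endoderm.

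Total counts were 12174670 to 57498697 in left and 14836223 to 62707669 in right libraries. Levels are given in CPM, read counts scaled by the library total and a trimmed-mean (TMM) factor. They are not divided by gene length, so a level is compared between libraries and never between genes. Markers of the labelled tissue were present: 9 of 9 gut epithelium genes and 11 of 12 gut mesenchyme genes had a row and a count above 0 in every library. The same held for 7 of 8 liver, 6 of 6 endothelium and 6 of 7 red cell genes, so this does not tell the tissue apart. The summed CPM of 7 liver genes ran from 1463 to 37731 in left and from 2551 to 30367 in right libraries. No list of markers had a gene with a row at 0 in all libraries. These are bulk tissue values, in which fewer cells of a type and less RNA per cell cannot be told apart.

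FRZB, a Wnt antagonist of the SFRP family, was higher on the left in 5 of 5 title pairs. In pair 1 it stood at 40.0 CPM on the left, against 30.6 CPM on the right. In pair 2 it stood at 70.0 CPM on the left, against 29.2 CPM on the right, and in pair 3 at 42.1 CPM on the left, against 28.2 CPM on the right. The left value was the higher one each time, while the 3 right values lay within a narrow band. In pair 5 FRZB stood at 23.0 CPM on the left, against 12.2 CPM on the right, and in pair 6 at 19.1 CPM on the left, against 10.6 CPM on the right. The left-over-right ratio ran from 1.31 in pair 1 to 2.40 in pair 2, with a median of 1.80. The 5 left libraries averaged 38.8 ± 20.2 CPM and the 5 right libraries 22.2 ± 9.88 CPM (SD), and these ranges overlapped because the level itself was lower in pairs 5 and 6.

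The main row of RSPO3, an R-spondin and so an amplifier of Wnt signals, also had its higher value on the left in 5 of 5 title pairs. The left values were 15.5, 22.3, 23.2, 26.8 and 21.3 CPM in replicates 1, 2, 3, 5 and 6. The right values in the same order were 14.2, 11.8, 12.2, 17.4 and 16.8 CPM. Pair 1 was nearly level, with a ratio of 1.09 (95% exact interval 0.954 to 1.24, covering counting error only), and pair 3 had the widest gap, with a ratio of 1.91. The mean was 21.8 ± 4.10 CPM on the left, against 14.5 ± 2.60 CPM on the right (SD, n = 5 each). Of all 22158 rows tested, 3.46% were higher on the left in every title pair and 3.82% were lower, a group that held none of the 7 genes. A shorter RSPO3 entry, Q9BXY4-2, held 49.7 to 72.4 counts per 100 counts of the main row. In pair 1 this entry was slightly lower on the left, at 9.14 CPM against 9.38 CPM on the right. In pairs 2, 3, 5 and 6 it was higher on the left. The rows of RSPO3 may share or split reads and were read as 1 measurement.

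Both genes entered the set through a fit of these title pairs, so the following calls are a description. DESeq2 with the title pair as a block gave log2 folds, left over right, of 0.79 ± 0.13 for FRZB (SE, adjusted p = 1.1e-05) and 0.58 ± 0.14 for RSPO3 (adjusted p = 0.0197), and called 103 of 18969 rows, 0.543%. The edgeR quasi-likelihood test of the same design gave folds of 0.80 ± 0.12 for FRZB (adjusted p = 0.341) and 0.59 ± 0.13 for RSPO3 (adjusted p = 0.587). It called 0 of 22452 rows, with 1294 under an unadjusted p of 0.05. Beside these differences, the summed liver markers and the summed gut epithelium markers both had their lower value on the left in 5 of 5 pairs, and the summed gut mesenchyme markers were higher on the left in 2 of 5. COL1A1, with a mean of 459 CPM, led the mesenchyme sum, and single genes of that list went both ways. HAND1, HAND2 and NKX2-3 were higher on the left in 0 of 5 pairs and FGF10 in 5 of 5, with the rest mixed. These 4 were named after their values were seen. The part of the markers in the result was not tested.

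**Figure D1:**
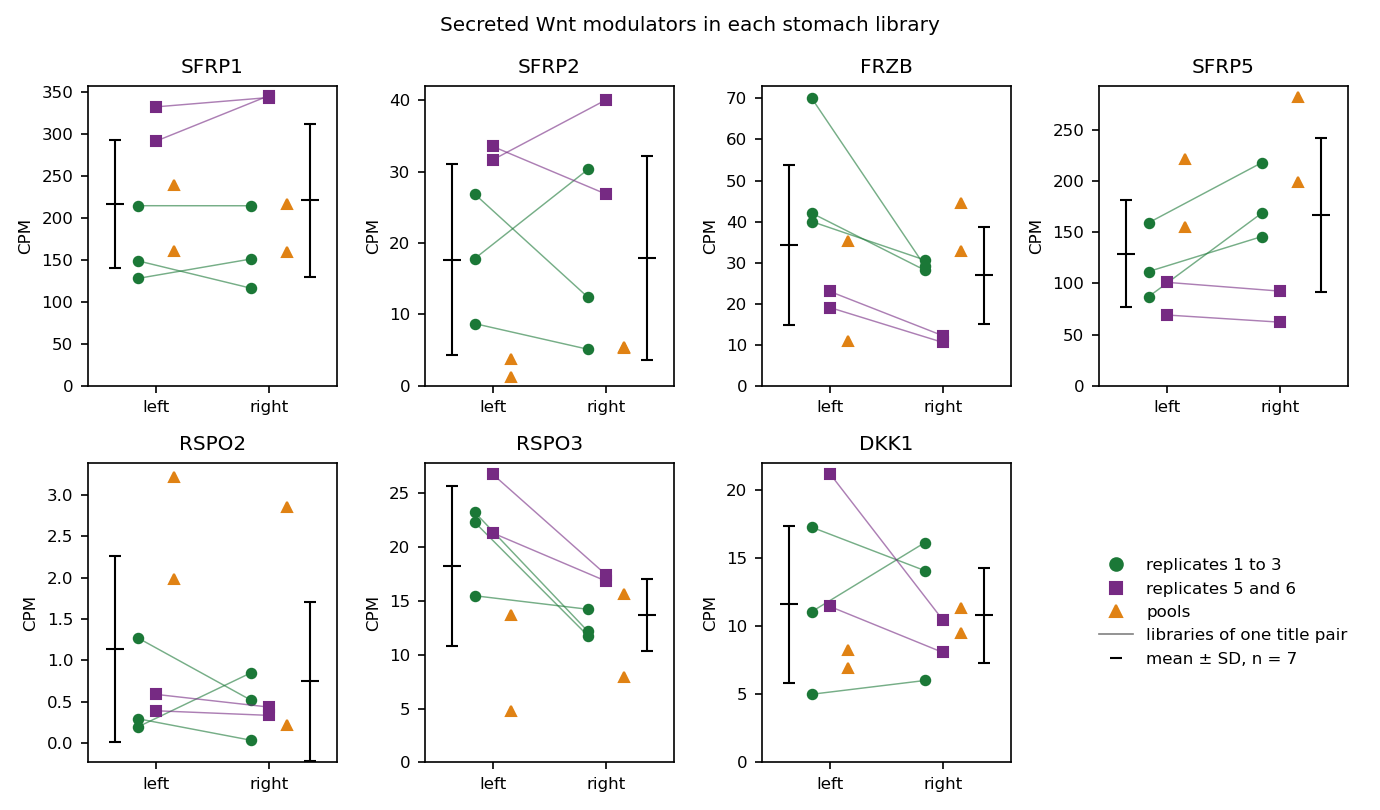
Level of each secreted Wnt modulator in CPM (vertical axes, linear, a separate scale for each gene) in left and right libraries. Symbols mark the library sets, lines join title pairs, and black bars give the mean ± SD of 7 libraries a side; every FRZB and RSPO3 line slopes down to the right, whereas the pools (triangles) do not share that order.

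The pools were not part of that fit and did not show FRZB or RSPO3 higher on the left. FRZB was at 35.3 and 10.9 CPM in left pools 7 and 8, against 32.8 and 44.5 CPM in right pools 7 and 8. The low value was left pool 8, and the sides overlapped. Left pool 8 also stood apart in its markers and scaling. Its red cell genes summed to 68262 CPM, against 18452 in left pool 7, 18826 in right pool 7 and 26918 in right pool 8. Its epidermis genes summed to 1359 CPM, against 84.9, 33.1 and 21.1 in the same order. Its TMM factor, 0.769, was the lowest of all libraries. Their part in the pool values was not tested. RSPO3 was at 13.7 and 4.82 CPM in the left pools, against 15.6 and 7.92 CPM in the right pools, again with overlap and with left pool 8 lowest. The edgeR test of the 4 pools gave log2 folds, left over right, of -0.77 ± 0.54 for FRZB (SE, 95% interval -2.06 to 0.52) and -0.38 ± 0.58 for RSPO3 (-1.78 to 1.01). Adjusted p was 1 for both.

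Across the 4 pools edgeR called 0 of 19989 rows between the sides (0%), with 631 under an unadjusted p of 0.05, and DESeq2 called 50 rows. Neither tool called any of the 7 genes. Without left pool 7, FRZB was called lower on the left (log2 fold -1.88, adjusted p = 0.0133), in a fit that called 1445 rows and rests on left pool 8 alone for its side. Without left pool 8, the fold of FRZB was -0.15 and that of RSPO3 0.18. In these fits the lone library of a side is assumed to vary like the others.

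Whether the side difference itself differed between pools and single-stomach libraries was tested as an interaction. For FRZB the difference of log2 folds, pools minus single-stomach, was -1.55 ± 0.80 (SE, edgeR adjusted p = 0.706), and for RSPO3 it was -0.95 ± 0.51 (adjusted p = 0.725). The single-stomach side of this contrast helped to choose both genes, so the size of these differences is not independent of that choice. With the title pair as a block, adjusted p was 0.238 for FRZB and 0.455 for RSPO3. The edgeR fit called 0 of 22158 rows for this interaction (0%), with 1650 under an unadjusted p of 0.05. With the block it called 10 rows, and DESeq2 called 142. Without left pool 7, when 1599 rows were called, RSPO3 passed (adjusted p = 0.0405).

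**Figure D2:**
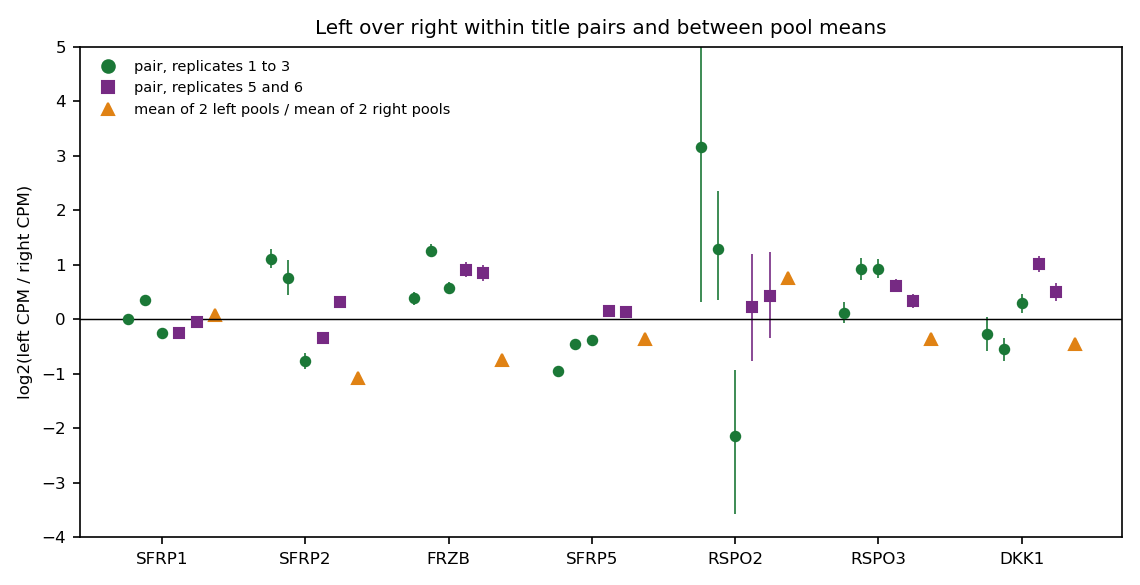
Log2 ratio of left over right CPM for each gene (vertical axis) in the 5 title pairs, with 95% exact intervals for counting error, and between the means of 2 left and 2 right pools (triangles, no interval). All FRZB and RSPO3 pairs lie above 0 and their pool values below it; the RSPO2 interval of pair 1 runs off the top of the axis.

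SFRP1, an antagonist that binds Wnt ligands, was nearly level between the sides. Its lowest, median and highest values were 128, 214 and 332 CPM in the 7 left libraries and 116, 214 and 345 CPM in the 7 right libraries. The left-over-right ratio in the title pairs stayed between 0.843 and 1.28, with the left higher in 2 of 5. In the pools it was at 238 and 161 CPM on the left and at 216 and 160 CPM on the right, with overlap. The log2 fold over 14 libraries was -0.03 ± 0.27 (SE, 95% interval -0.61 to 0.56).

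SFRP2, a close relative of SFRP1, varied widely within each side. It ran from 1.30 to 33.5 CPM on the left, with a median of 17.8, and from 5.13 to 40.0 CPM on the right, with a median of 12.4. The title pairs went in both directions. SFRP2 was higher on the left in pair 1 (26.8 CPM on the left, against 12.4 CPM on the right) and lower in pair 3 (17.8 CPM on the left, against 30.3 CPM on the right). The ratio ranged from 0.588 to 2.16, with the left higher in 3 of 5. In the pools, with only 2 libraries a side, SFRP2 was at 3.83 and 1.30 CPM on the left, against 5.31 and 5.45 CPM on the right. The test of the 4 pools did not call it (log2 fold -1.10 ± 0.63, edgeR adjusted p = 1).

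SFRP5, the member known from foregut endoderm in Xenopus, split the title pairs by library set. In replicates 1, 2 and 3 it was lower on the left, at 87.2, 159 and 112 CPM against 169, 218 and 146 CPM on the right. In replicates 5 and 6 it was slightly higher on the left, at 69.2 and 101 CPM against 62.2 and 92.6 CPM on the right. Left pools 7 and 8 held 221 and 155 CPM and right pools 7 and 8 held 199 and 282 CPM, so the sides overlapped in the pools. The log2 fold over 14 libraries was -0.37 ± 0.25 (SE, 95% interval -0.91 to 0.17).

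RSPO2, the other R-spondin, was close to the limit of counting in most libraries. Single-stomach libraries held 7 to 43 counts on the left and 1 to 30 counts on the right, so the pair ratios are loose. Pair 1 had 9 counts on the left and 1 on the right, a ratio of 8.99 with a 95% exact interval of 1.25 to 394, and pair 3 had 7 on the left and 30 on the right, a ratio of 0.227 (0.0843 to 0.528). RSPO2 was at 3.22 and 1.99 CPM in the left pools, against 2.85 and 0.218 CPM in the right pools. The last value rests on 3 counts, which is also the level that a count of 0 would allow in that library.

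DKK1, which blocks the LRP5 and LRP6 co-receptors, did not keep the same side order across the sets or within replicates 1 to 3. It was lower on the left in pair 1 (5.01 CPM on the left, against 6.02 CPM on the right) and in pair 2 (11.1 CPM on the left, against 16.2 CPM on the right), and higher on the left in pair 3 (17.3 CPM on the left, against 14.1 CPM on the right). In pairs 5 and 6 it was higher on the left, at 21.2 and 11.5 CPM against 10.5 and 8.08 CPM on the right. In the pools it was lower on the left, at 6.96 and 8.26 CPM against 9.49 and 11.3 CPM on the right. Replicates 5 and 6 and the pools each hold only 2 libraries a side. Over all 14 libraries the log2 fold was 0.07 ± 0.30 (SE, 95% interval -0.56 to 0.71). DKK1 was not called in the pools (log2 fold -0.48 ± 0.36, edgeR adjusted p = 1).

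Over all 14 libraries, with library source as a term, edgeR called 0 of 22158 rows between left and right (0%), with 227 under an unadjusted p of 0.05, and DESeq2 also called 0, with 342. The log2 fold was 0.38 ± 0.40 for FRZB, 0.33 ± 0.25 for RSPO3, 0.45 ± 0.59 for RSPO2 and -0.23 ± 0.43 for SFRP2 (SE). Among the 7 genes 4 had a positive fold and 3 a negative one, with a median of 0.07, against a median of 0.01 over all rows. The FRZB fold was 0.11 without left library 2 and 0.63 without left pool 8. The RSPO3 fold was 0.51 without left pool 8 and likewise without right pool 7.

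The genes were not chosen by a rule on library source, pools against single-stomach libraries, and this contrast was tested. Earlier results of these data were known when the genes were chosen. SFRP2 was lower in the pools, at 3.97 ± 1.93 CPM (SD, n = 4) against 23.3 ± 11.6 CPM in single-stomach libraries (SD, n = 10). Its log2 fold, pools over single-stomach, was -2.59 ± 0.56 (SE, edgeR adjusted p = 0.00302). It was called in all 14 fits that left out 1 library. The highest pool, at 5.45 CPM, lay just above the lowest single-stomach library, right 2, at 5.13 CPM. None of the 7 genes was free of such overlap, against 17.9% of all rows.

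RSPO2 and SFRP5 were higher in the pools. RSPO2 was at 2.07 ± 1.34 CPM in pools and 0.490 ± 0.353 CPM in single-stomach libraries (log2 fold 2.05 ± 0.61, edgeR adjusted p = 0.0191). SFRP5 was at 214 ± 52.8 CPM in pools and 122 ± 49.8 CPM in single-stomach libraries (log2 fold 0.82 ± 0.27, edgeR adjusted p = 0.0321). Both overlapped between the library sources. The SFRP5 call was lost without left pool 7 (adjusted p = 0.105) or right pool 8 (0.107), and the RSPO2 call without left pool 7 (0.0644) or right pool 7 (0.143).

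RSPO3 lay near the threshold in the same comparison. Its main row was at 10.5 ± 5.01 CPM in pools and 18.2 ± 5.04 CPM in single-stomach libraries (log2 fold -0.73 ± 0.29, edgeR adjusted p = 0.0654). The shorter entry Q9BXY4-2 had a log2 fold of -1.03 ± 0.29 (adjusted p = 0.0145), and summing both rows gave -0.85 (adjusted p = 0.0330). DESeq2 called the main row (adjusted p = 0.0388), as did edgeR without right pool 7 (0.0108). SFRP1 (log2 fold -0.24, 95% interval -0.89 to 0.42), FRZB (0.12, -0.83 to 1.07) and DKK1 (-0.41, -1.14 to 0.31) did not pass the test.

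These calls stand against a high background. In the comparison of pools with single-stomach libraries 6842 of 22158 rows were called, 30.9%, with 17.7% lower and 13.1% higher in the pools, and the 3 called of 7 are not read as particular to these genes. Left and right libraries of a title pair entered this fit as separate samples, and p-values may be too small if they came from the same stomach. With left libraries alone SFRP2 was still called (adjusted p = 0.0236) and SFRP5 was not (0.122). With right libraries alone neither was called (0.124 for SFRP2, 0.249 for SFRP5). RSPO2 did not pass the low-count filter of either of those fits.

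Tissue markers moved with library source too. The summed CPM of 7 liver genes was 23124 to 37731 in pools and 1463 to 10565 in single-stomach libraries, and all 7 were called higher in the pools. The summed CPM of 6 epidermis genes was 21.1 to 1359 in pools and 1649 to 5096 in single-stomach libraries, and 5 of 6 were called lower. Mesothelium genes summed to 143 to 245 CPM in pools and 549 to 872 CPM in single-stomach libraries. Of the 6 tested, 2 were called lower, and most of the gap lay in MSLN (29.1 ± 52.0 CPM in pools and 502 ± 137 CPM in single-stomach libraries). Gut mesenchyme genes summed to 418 to 583 CPM in pools and 697 to 1643 CPM in single-stomach libraries. Only 2 of 11 were called, both collagens: COL1A1 (60.2 ± 70.3 CPM in pools and 618 ± 191 CPM in single-stomach libraries) and COL1A2 (33.0 ± 38.6 CPM in pools and 171 ± 50.4 CPM in single-stomach libraries). BARX1, a stomach mesenchyme factor, was at 71.7 ± 43.4 CPM in pools and 82.4 ± 49.8 CPM in single-stomach libraries and was not called. These 4 marker genes were singled out after their values were seen. The part of these markers in the SFRP2, SFRP5 and RSPO2 differences was not tested.

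**Figure D3:**
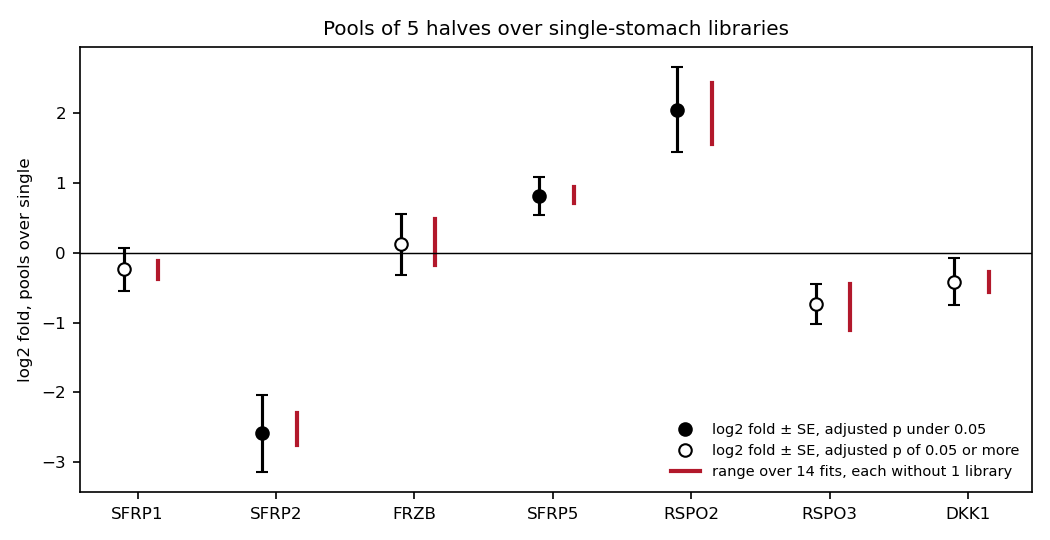
Log2 fold of each gene in 4 pools over 10 single-stomach libraries (vertical axis), with its SE, filled where the edgeR adjusted p was under 0.05. Red bars give the range over 14 fits that each left out 1 library; SFRP2 stays well below 0, RSPO2 and SFRP5 stay above it, and FRZB spans 0.

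Replicates 5 and 6 stood apart from replicates 1 to 3 within the single-stomach libraries. That division was found in the data and not in the labels, so values are given without a test. The sets also differed in depth, with 47441280 to 62707669 total counts in replicates 5 and 6 and 21525694 to 34229305 in replicates 1 to 3. Summed gut epithelium markers were at 9573 to 11542 and 3151 to 6580 CPM in the same order, and endothelium markers at 118 to 134 and 170 to 257 CPM. Gut mesenchyme sums overlapped. The part of depth and markers in the values below was not tested. SFRP1 was at 328 ± 25.2 CPM in replicates 5 and 6 (SD, n = 4) and 162 ± 42.5 CPM in replicates 1 to 3 (SD, n = 6), without overlap. FRZB ran the other way, at 16.2 ± 5.83 CPM in replicates 5 and 6 and 40.0 ± 15.8 CPM in replicates 1 to 3, also without overlap. Of all rows tested, 37.7% did not overlap between these sets, against 2 of the 7 genes.

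The other members overlapped between the sets. SFRP2 was at 33.0 ± 5.46 CPM in replicates 5 and 6 and 16.9 ± 10.0 CPM in replicates 1 to 3, and SFRP5 at 81.3 ± 18.5 CPM in replicates 5 and 6 and 148 ± 45.8 CPM in replicates 1 to 3. RSPO3 was at 20.6 ± 4.57 CPM in replicates 5 and 6 and 16.5 ± 5.03 CPM in replicates 1 to 3. DKK1 was at 12.8 ± 5.79 CPM in replicates 5 and 6 and 11.6 ± 5.18 CPM in replicates 1 to 3. RSPO2 ran from 0.333 to 0.587 CPM in replicates 5 and 6 and from 0.0326 to 1.27 CPM in replicates 1 to 3. For FRZB the ratio of replicates 1 to 3 over replicates 5 and 6 was 2.47, wider than the median left-over-right ratio of 1.80, and the left was higher in both sets.

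The sets also bear on the comparison of pools with single-stomach libraries. Because the sets were found in these data, only folds and levels are given. SFRP1 had a log2 fold of -0.80 in pools over replicates 5 and 6 and of 0.28 in pools over replicates 1 to 3. FRZB had a log2 fold of 0.91 in pools over replicates 5 and 6 and of -0.29 in pools over replicates 1 to 3. SFRP2 averaged 3.97 CPM in pools, below 33.0 CPM in replicates 5 and 6 and 16.9 CPM in replicates 1 to 3. SFRP5 averaged 214 CPM in pools, above 81.3 CPM in replicates 5 and 6 and 148 CPM in replicates 1 to 3. Both genes overlapped between pools and replicates 1 to 3, and neither did between pools and replicates 5 and 6. RSPO2 values of the pools overlapped with those of either set. No share of all rows is given for these comparisons, so the values are a description.

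The rest of the pathway was read through 6 lists of 95 genes in all, of which 80 were tested. None of them was called between the sides over 14 libraries by edgeR, and 43 had a positive and 37 a negative log2 fold. In the single-stomach libraries with the title pair as a block, DESeq2 called 3 of them, which are given as a description and were named after their values were seen. They were WNT2 (adjusted p = 1.68e-08), APCDD1 (0.00665) and WNT5A (0.0269), and edgeR called none in that design. That DESeq2 fit called 103 of 18969 rows, 0.543%, and gave some of the 80 genes no adjusted p. The levels that follow include the pools, which were not part of it. WNT2, a Wnt ligand, was at 3.31 ± 2.61 CPM on the left, against 0.973 ± 0.836 CPM on the right over 7 libraries a side (SD), higher on the left in 5 of 5 pairs. WNT5A, a ligand best known for signalling without β-catenin, was at 17.0 ± 6.28 CPM on the left, against 11.0 ± 4.08 CPM on the right, higher on the left in 4 of 5 pairs. Other secreted modulators had 4 of 11 folds above 0, with a median of -0.08. APCDD1, an inhibitor in the cell membrane, was at 22.5 ± 9.28 CPM on the left, against 14.2 ± 5.76 CPM on the right over 7 libraries a side (SD), with its higher value on the left in 5 of 5 title pairs. Its log2 fold was 0.68 ± 0.31 (SE). RSPO1, another R-spondin, was at 9.07 ± 4.45 CPM on the left, against 12.5 ± 2.73 CPM on the right, higher on the left in 1 of 5 pairs. The list of Wnt ligands and secretion factors had 14 of 16 folds above 0 and a median of 0.41, beside 53.2% of folds above 0 over all rows. The title pairs were less uniform. Among genes with a positive fold, WNT3, WNT6, WNT7B, WNT9B and PORCN were higher on the left in 2 of 5 pairs. WNT9A, WNT10A and WNT10B were higher on the left in 3 of 5, and WNT2B, WNT4, WNT5B and WNT11 in 4 of 5.

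The receptors that R-spondins use showed little side difference. LGR4 was at 22.6 ± 7.64 CPM on the left, against 22.9 ± 5.35 CPM on the right, and RNF43 at 11.99 ± 4.63 CPM on the left, against 11.2 ± 2.96 CPM on the right (SD, n = 7). The 4 genes of that list had a median log2 fold of -0.02. Of 19 Frizzled receptors, co-receptors and partners, 7 had a positive fold, with a median of -0.10. FZD7 was at 242 ± 107 CPM on the left, against 258 ± 124 CPM on the right, and the glypican GPC4 at 192 ± 50.8 CPM on the left, against 197 ± 33.5 CPM on the right. Among intracellular mediators the median was 0.03, with CTNNB1 (β-catenin) at 1546 ± 331 CPM on the left, against 1490 ± 236 CPM on the right. Among 16 targets the median was -0.01, with MYC at 253 ± 48.3 CPM on the left, against 240 ± 29.8 CPM on the right and MSX1 at 108 ± 47.2 CPM on the left, against 108 ± 40.3 CPM on the right.

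Between library sources 25 of the 80 pathway genes were called by edgeR, 2 higher and 23 lower in the pools, beside 30.9% of all rows called, 17.7% lower and 13.1% higher. The total is close to that background and is not read as a result on the pathway. The ligand list had 8 of 16 called lower and a median log2 fold of -0.997, against -0.08 over all rows. WNT10B was at 0.436 ± 0.374 CPM in pools and 11.0 ± 2.20 CPM in single-stomach libraries (adjusted p = 4.22e-06). WNT3 was at 0.0218 ± 0.0435 CPM in pools and 3.45 ± 2.33 CPM in single-stomach libraries, and WNT10A at 0.445 ± 0.826 CPM in pools and 7.68 ± 4.10 CPM in single-stomach libraries. WLS, which carries Wnts to the cell surface, was at 53.0 ± 8.45 CPM in pools and 79.5 ± 9.44 CPM in single-stomach libraries (log2 fold -0.59 ± 0.13, adjusted p = 0.00302). WNT2B, a ligand known from gut mesenchyme in the mouse, was not called (log2 fold 0.12 ± 0.46).

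In the receptor list 8 of 19 were lower and 0 higher, among them FZD6 (5.14 ± 1.23 CPM in pools and 15.1 ± 3.25 CPM in single-stomach libraries) and FZD10 (19.1 ± 2.37 CPM in pools and 29.9 ± 5.22 CPM in single-stomach libraries). FZD2 was at 57.3 ± 8.53 CPM in pools and 90.4 ± 13.1 CPM in single-stomach libraries. RNF43 was the 1 of 4 genes called in its list, at 7.08 ± 3.24 CPM in pools and 13.4 ± 2.07 CPM in single-stomach libraries (log2 fold -0.91 ± 0.25, adjusted p = 0.0126). Of 16 targets 5 were lower, including MSX2 (log2 fold -1.98 ± 0.56, adjusted p = 0.0150) and SP5 (-2.05 ± 0.60, 0.0181). CDX2, a factor of posterior gut, was the 1 target called higher, at 82.6 ± 15.7 CPM in pools and 35.4 ± 14.6 CPM in single-stomach libraries. IGFBP4, an insulin-like growth factor carrier that can also bind Wnt receptors, was the other gene called higher, at 12.2 ± 3.31 CPM in pools and 2.75 ± 1.29 CPM in single-stomach libraries (log2 fold 2.15 ± 0.32, adjusted p = 0.000282). CTNNB1 was the 1 of 14 mediators called (log2 fold -0.46 ± 0.12, adjusted p = 0.010), and the kinase CSNK1A1 did not pass (-0.18 ± 0.09).

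**Figure D4:**
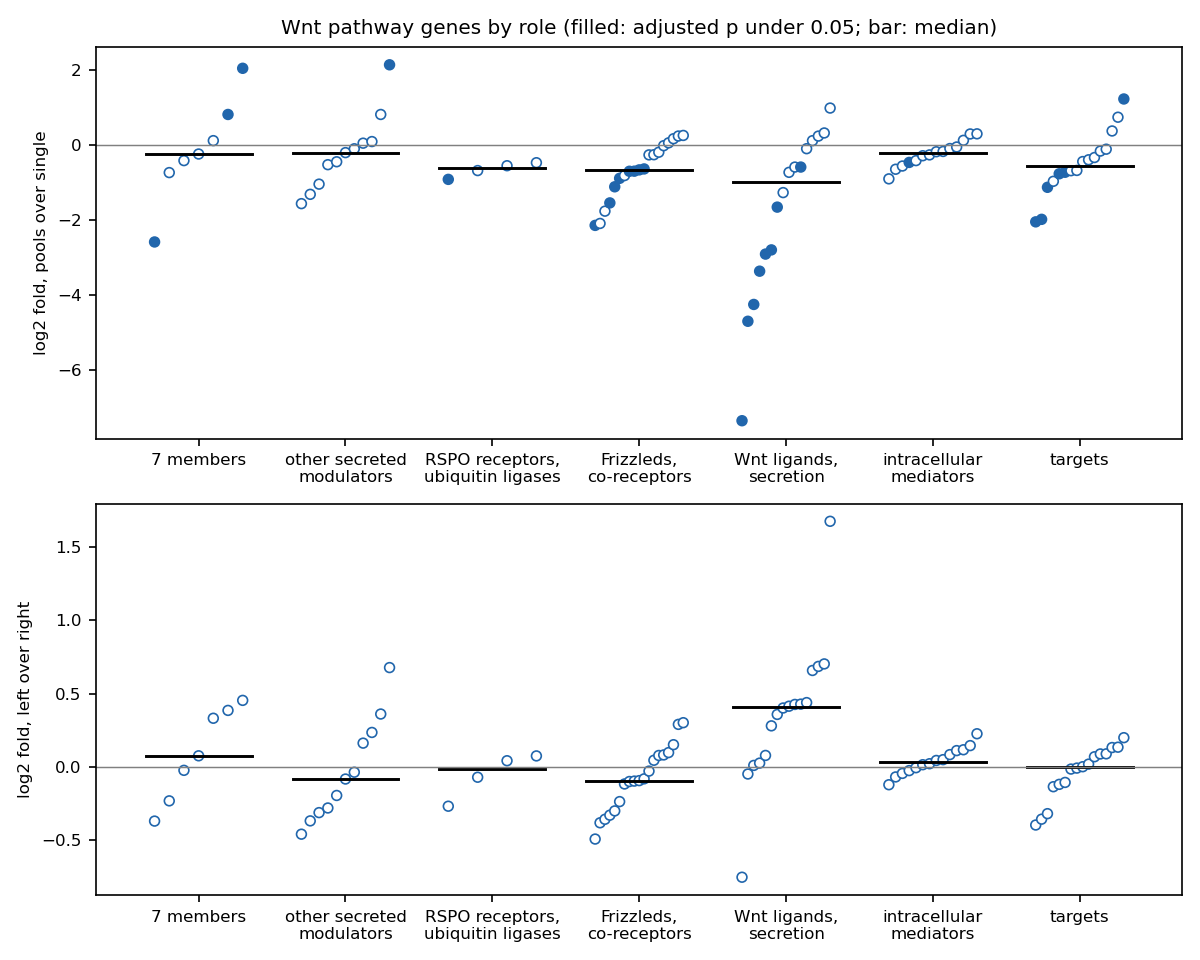
Log2 folds (vertical axes) of the 7 secreted modulators and of 80 other Wnt pathway genes in 6 lists, for pools over single-stomach libraries (top) and left over right in 14 libraries (bottom). Each circle is a gene, filled where the edgeR adjusted p was under 0.05, and bars are medians; filled circles occur only in the top panel, most of them below 0.

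The genes whose pattern was most like that of FRZB and RSPO3 were sought among 11228 other entries, on log2(CPM + 0.5) centred within each library set over 14 libraries. Nearest to FRZB were HPRT1 (entry HPRT, Pearson r = 0.89, Spearman rho = 0.88), a purine salvage enzyme, BACE1 (r = 0.89, rho = 0.87), a membrane protease, and HHIP (r = 0.88, rho = 0.87), an inhibitor of Hedgehog ligands. Each had its higher value on the left in 5 of 5 title pairs, an order that ranking by likeness to FRZB favours. The means of HPRT1 and BACE1 were nearly level. HPRT1 was at 85.6 ± 26.3 CPM on the left, against 83.6 ± 20.8 CPM on the right (SD, n = 7). BACE1 was at 1.29 ± 0.803 CPM on the left, against 1.25 ± 0.569 CPM on the right. HHIP was at 9.50 ± 4.46 CPM on the left, against 6.99 ± 2.20 CPM on the right (SD, n = 7). Nearest to RSPO3 were TRMT44 (entry TRM44, r = 0.91, rho = 0.86), a transfer RNA methyltransferase, WDR36 (r = 0.88, rho = 0.76), a ribosome assembly factor, and CHST12 (entry CHSTC, r = 0.85, rho = 0.78), a chondroitin sulfotransferase. FRZB and RSPO3 had r = 0.77 with each other by the same measure. Both were selected for a side difference in these libraries, which the centring keeps, so this r is not independent of that choice. Left pool 8 was also the lowest pool for both genes, at 10.9 CPM for FRZB and 4.82 CPM for RSPO3, which raises r. No r and no ranking without that library is given. These values describe 14 libraries that share title pairs and depth, and carry no test.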

How the data were processed

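RNA of left and right stomach was sequenced in 14 libraries with strand-specific kits, per the labels' protocols. The authors deposited raw counts for 26940 rows named by human UniProt entries. The submitters' processing notes name DESeq, Bowtie, Bowtie2 2.1.0, Trimmomatic and SAMtools 0.1.19 without roles. The sources used here do not give how reads were counted per row or with which strand setting, and isoform rows and paralogs may share or split reads. A deposited normalized table was not used here.

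Counts were tested with edgeR 4.0.16 (quasi-likelihood, TMM factors, filterByExpr by side, Benjamini-Hochberg threshold 0.05 over all rows) in R 4.3.3. Side and library source were terms of 1 fit of 14 libraries. The 4 pools were also fitted alone, and the interaction separately. Intervals of folds use the t distribution with edgeR's degrees of freedom, and intervals of counts cover counting error only. Alternatives were DESeq2 1.42.0, other scaling, filters, terms and subsets, rows summed by entry, and each library left out. Programs were tested on simulated counts.

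The replicate block used the 5 title stems, with the pools as 1 level. The stems were treated as pairs. Libraries of a stem deviated together from their group means across rows (r = 0.63, 0.65, 0.65, 0.77 and 0.85 in replicates 1, 2, 3, 5 and 6). No such correlation between different stems is given for comparison, so these values alone do not establish the pairing. Every pair of libraries within a side differed by more than counting noise (chi-square of at least 16.5 per degree of freedom, 42 pairs). Separate clutches are not stated, and p-values therefore reflect only the spread among these libraries.

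Members and lists were chosen with earlier results of these data known. Named are the 7 members, the 2 tested genes of highest mean CPM and up to 3 called genes of smallest p between library sources in each list, and the 3 entries most like FRZB and RSPO3 among reviewed entries with a mean CPM of at least 1.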

Additional observations from a re-analysis of the deposited data

Results flagged for a closer look

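RSPO2 in right pool 7 was flagged because it lay far from the other right libraries. It stood at 2.85 CPM (58 counts), while the next highest right library, right 3, stood at 0.848 CPM, a gap of 0.711 of the whole range of the 7 right libraries, above the 95% limit of Dixon's test for 7 samples. The other right pool held 0.218 CPM, and both left pools were higher than every single-stomach library. Both sides of 7 genes gave 14 groups, and chance flags about 1 in 20.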

How the results depend on the processing

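Between the sides the count of called rows was 0 in 14 libraries under both scalings, every filter, DESeq2, rows summed by entry, the 3 library sets as a term, no source term, the replicate block (448 rows under an unadjusted p of 0.05) and each library left out. The single-stomach libraries with the replicate block gave 103 calls by DESeq2 and 0 by edgeR. In the pools alone calls were 3 without a filter, 50 by DESeq2 and 0 to 1445 with 1 library left out, the highest without left pool 7. For the interaction they were 142 by DESeq2, 10 with the replicate block and 0 to 1599 with 1 library left out. Library source gave 6842 calls, 1911 with left and 1378 with right libraries only, in fits with fewer samples, and 5562 to 6859 with 1 left out.

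Some folds that were not called in the main fits changed sign. The cause was not tested. In pools over single-stomach libraries FRZB was at -0.78 with left libraries only and -0.29 against replicates 1 to 3, SFRP1 at 0.28 against replicates 1 to 3, and FRZB ran from -0.18 to 0.48 with 1 library left out. Left over right in the pools, with 1 left out, ran from -0.28 to 0.32 for SFRP1, -1.36 to 0.19 for RSPO3 and -0.17 to 3.49 for RSPO2. The interaction of SFRP5 was -0.055 with the replicate block and -0.26 to 0.29 with 1 library left out, that of SFRP1 -0.15 to 0.42 and that of RSPO2 -0.47 to 3.22. The replicate block changed no other call. Depth limits RSPO2 most.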

Other observations

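DKK3, a secreted relative of DKK1 that was looked at after its values were seen, differed between the sets of single-stomach libraries. It was at 15.4 ± 1.69 CPM in replicates 5 and 6 (SD, n = 4) and 2.30 ± 1.18 CPM in replicates 1 to 3 (SD, n = 6), with 7.90 ± 1.35 CPM in the pools (SD, n = 4). It was higher on the left in 5 of 5 title pairs, at 8.09 ± 6.06 CPM over 7 left and 7.19 ± 5.91 CPM over 7 right libraries, a side difference far smaller than that between the sets.

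SFRP1 and DKK1, centred within each library set, ran in opposite directions over the 14 libraries (Pearson r = -0.84, given as a description of libraries that share title pairs). Replicate 1 had the highest SFRP1 of replicates 1 to 3, at 214 CPM on either side, and the lowest DKK1, at 5.01 CPM on the left, against 6.02 CPM on the right. This pair was picked from 21 pairs of members after their values were seen.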
